A study of Mus musculus with 8 samples.

Results

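The proteasome genes are the probes whose gene symbol on the array platform begins with Psma, Psmb, Psmc, Psmd, Psme, Psmf or Psmg, without Psmc3ip. The array carried 66 such probes for 44 genes, of 23978 named probes for 16593 genes, and 37 of the 44 genes had a probe detected on at least 2 of 8 arrays. Of these 37, 3 encode immunoproteasome subunits and 34 are other members. Psma1, Psma6, Psmc6, Psmd5, Psmd6, Psmd9 and Psme2 did not pass the detection filter and are given no value beyond that. Psme3ip1, which the rule takes in by its symbol, encodes a partner of Psme3 and not a subunit.

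The 8 arrays each held 1 pool of RNA from sorted CD4 T cells of C57B6 mice of both sexes aged 7 to 14 weeks. The gate for both kinds of cell was live, positive for TCRb and CD4, and negative for CD8 and B220. Treg (regulatory T cells) carried a GFP that reports Foxp3, the factor that defines them, and Tcon (conventional T cells) lacked it. They came from the small intestine (gut) or the spleen of K14 mice (K14Aβb, FOXP3GFP) or of control mice (MHCII+/-, FOXP3GFP), so that all animals carried the reporter. In K14 mice the Aβb chain of MHC class II is placed under the keratin 14 promoter, and the labels give MHC class II as absent outside the thymus. Every combination of tissue, cell type and genotype had 1 array and no replicate, and the cells of each pool came from several mice.

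The proteasome is the protease that degrades ubiquitin-tagged proteins. Its 20S core is a stack of alpha and beta rings with the catalytic sites on Psmb5, Psmb6 and Psmb7, and the 19S regulatory particle of ATPases (Psmc) and non-ATPases (Psmd) recognises, unfolds and feeds in the substrate. Interferon-gamma induces Psmb8, Psmb9 and Psmb10, which replace Psmb5, Psmb6 and Psmb7 in newly built cores to form the immunoproteasome, the form abundant in lymphocytes and known for making peptides for MHC class I. Psmg genes encode chaperones that assemble the core, and Psme genes encode activators that cap it in place of the 19S particle.

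All levels below are log2 normalized signals of the brightest detected probe of a gene. Levels of different probes are not comparable, so only differences between arrays are read. The arrays detected 8822 to 9677 of their 25697 probes and 46 to 48 of the 66 proteasome probes. The T cell list had 7 of 7 genes detected on every array. The Treg list summed to 56388 to 110998 signal units on Treg arrays, against 4366 to 48962 on Tcon arrays. Of the CD8 markers, Cd8b1 was detected on all 8 arrays, at 9.80 to 13.38, and Cd8a did not pass the filter, in cells gated as CD8-. The probe for Foxp3 stayed at 6.76 to 7.08 on all 8 arrays and marks no group. H2-Ab1, the gene of the Aβb chain, was at 13.20, 13.38 and 12.87 in spleen Tcon, spleen Treg and gut Tcon of K14 mice. Each of these was above all control arrays, which lay at 10.99 to 12.25. In gut Treg of K14 mice it was at 10.94, so the genotypes overlap only through that array. Which cells of the pools carry this RNA was not tested. In RNA of pooled cells, fewer cells of a type and less RNA per cell cannot be told apart.

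Many proteasome genes had their minimum on the same array. On the array of gut Treg from control mice 19 of 37 proteasome genes had their lowest level, which is 51.4%, against 13% of all 7916 genes tested. Among the 1037 genes at least as bright as the median proteasome gene, the share was 20.4%. None of the 37 had its highest level there, against 10.5% of all genes. The median proteasome gene lay 0.30 below its own mean over the 8 arrays on that array, against 0.02 below for all genes. On the other 7 arrays the median deviation of the proteasome genes ran from -0.06 to 0.11. All of these are normalized levels, and the gut Treg control array had the highest median deposited signal, 250.2 against 211.4 to 242.6 elsewhere. In deposited signals Psmb1, Psmb2, Psmb3, Psmb5, Psmb6 and Psmb10 were also lowest on that array, while Psmb4, Psmb7 and Psmb9 were lowest on others.

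Roles differed in how many members had their minimum on the gut Treg control array. They included 9 of 10 beta subunits, 2 of 5 alpha subunits, 2 of 5 ATPases, 4 of 9 non-ATPase subunits, 1 of 3 core assembly chaperones and 0 of 3 activators. Psmb8 was the beta subunit outside this pattern, with its minimum in gut Tcon of control mice. In gut Treg, 31 of 37 proteasome genes were higher in the K14 pool than in the control pool, with a median difference of 0.26, against 48.7% of all genes and a median of -0.01. All 15 measured subunits of the 20S core were among them, by 0.09 to 0.83. The 19 proteasome genes with their minimum on the gut Treg control array were higher in the K14 pool by definition. They include 11 of the 15 core subunits. The counts and the sign of the median thus follow largely from these minima and are not a separate observation. The gut Treg pair is 1 array against 1 array and has no replicate check. On the gut Treg control array, 1 of 8 myeloid, 0 of 2 erythroid and 8 of 14 cell cycle genes were detected, with summed signals of 2139, 490 and 13458, each the lowest of the 8 arrays. Other lists were not at their lowest there. Epithelial genes summed to 7352.5 and exocrine pancreas genes to 4703.5, both exceeded only in gut Tcon of control mice. B cell genes summed to 5409.5, against 2348.8 to 16157.9 over all arrays. The part of these groups in the result was not tested. T cell markers summed to 161885 there, against 122647 to 191337 over all arrays.

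**Figure D1:**
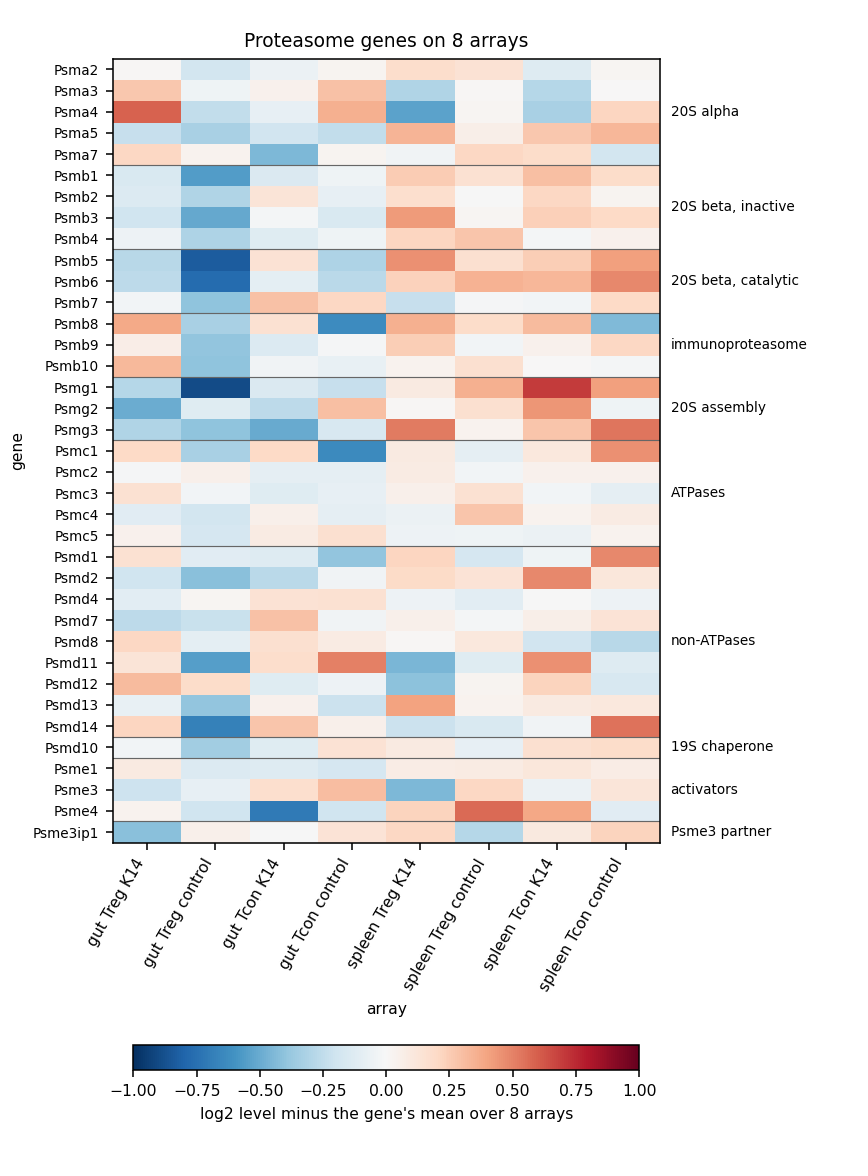
Levels of the 37 measured proteasome genes (rows, grouped by role) on the 8 arrays (columns, 1 pool each), as log2 level minus the gene's own mean over the 8 arrays, blue for lower and red for higher. The column of gut Treg from control mice is blue in most rows, and it holds the lowest level of 19 of 37 genes.

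**Figure D2:**
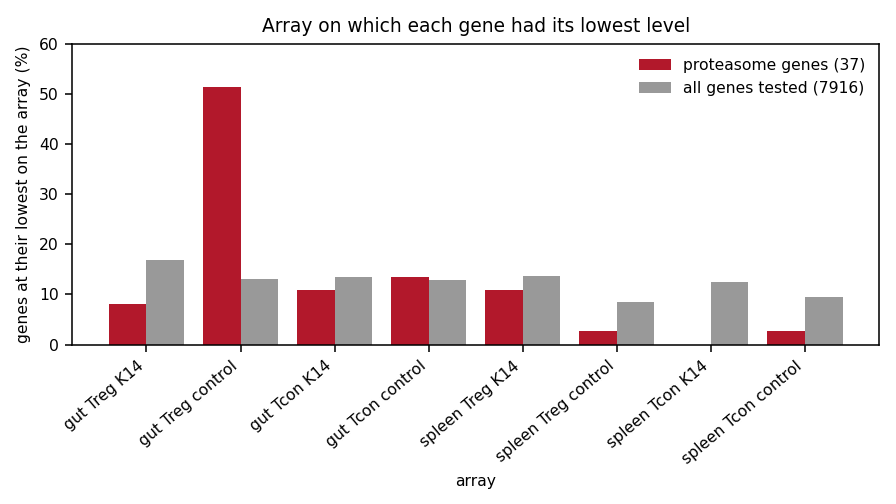
Share of genes (percent, bars from 0) that had their lowest level on each of the 8 arrays, for the 37 proteasome genes in red and all 7916 genes tested in grey. The gut Treg control array held 51.4% of the proteasome genes, against 13% of all genes.

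The median range of the proteasome genes over the 8 arrays was 0.72 on the log2 scale, against 1.28 for all genes tested. It was 0.75 for the 1037 genes at least as bright as the median proteasome gene, a set without genes as dim as the dimmer members. limma, with the 4 matched pairs of arrays as blocks and Benjamini-Hochberg adjustment over all 7916 genes, placed 0 of 37 past an adjusted p of 0.05 in any comparison. The background for that call was 0.707% of genes for Treg minus Tcon, 0% for K14 minus control and 2.37% for gut minus spleen. At an unadjusted p of 0.05, the proteasome genes numbered 0 for Treg minus Tcon (background 15.3%), 1 for K14 minus control (background 8.01%) and 8 for gut minus spleen (background 24.1%, that is, 21.6% of the proteasome genes). None of these shares exceeded its background. The difference of all but 1 of the 37 genes, or 97.3%, lay within 0.5 in each of the first 2 comparisons, against 73.4% and 81.8% of all genes. For gut minus spleen that of 32 of 37 did, or 86.5%, against 64%. All genes tested are dimmer, with a median mean level of 9.58 against 12.95 for the proteasome genes. No share within 0.5 was taken for genes of like brightness.

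For gut minus spleen the median difference of the proteasome genes was -0.17, against -0.07 for all genes tested, and none passed the test. On average 28 of 37 were lower in gut, against 4496 of all 7916 genes. In all 4 pairs 14 of 37 were lower, or 37.8%, against 20% of all genes, and 0 of 37 were higher in all 4, against 14.3%. The 4 gut arrays and the 4 spleen arrays did not overlap for 9 of 37 genes, or 24.3%, against 14.6%. The median was -0.33 in Treg of control mice and between -0.09 and -0.11 in the other 3 pairs, where the medians of all genes were -0.05 to -0.09. Without the Treg control pair the median of the fitted differences was -0.14.

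Between Treg and Tcon the median difference of the proteasome genes was -0.08, against -0.03 for all genes. In all 4 pairs 8 of 37 were lower in Treg, or 21.6%, against 13.7% of all genes, and 2 of 37 were higher, or 5.41%, against 11.8%. The groups did not overlap for 1 of 37 genes, or 2.7%, against 6.9%. The median was -0.25 in the gut of control mice and 0.00, -0.02 and -0.05 in the other pairs. Without the gut control pair the median of the fitted differences was -0.04.

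Between K14 and control mice the median difference was 0.07, against -0.01. In all 4 pairs 3 of 37 were higher in K14 pools, or 8.11%, against 7.88%, and 1 of 37 was lower, or 2.7%, against 8.62%. No proteasome gene had groups that did not overlap, against 2.41% of all genes. The median was 0.26 in gut Treg and between -0.02 and -0.01 in the other 3 pairs. Without the gut Treg pair the median of the fitted differences was -0.02. Each of the 3 comparisons thus had its widest median in the pair that contains the gut Treg control array. The comparisons share all 8 arrays, so these are not separate observations.

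**Figure D3:**
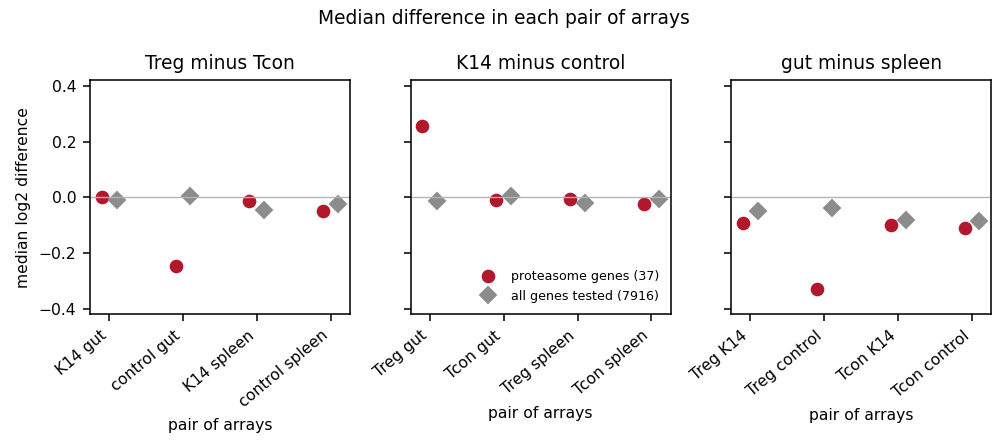
Median log2 difference of the 37 proteasome genes (red circles) and of all 7916 genes tested (grey diamonds) in each of the 4 pairs of arrays of the 3 comparisons. The 3 pairs that contain the gut Treg control array stand at -0.25, 0.26 and -0.33 for the proteasome genes, while their other 9 pairs lie between -0.11 and 0.00.

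Psmb8, the interferon-inducible subunit that takes the place of Psmb5, was higher in K14 than in control pools in all 4 pairs. Its level was 9.16 in gut Treg, 8.94 in gut Tcon, 9.14 in spleen Treg and 9.10 in spleen Tcon of K14 mice. In control mice it was 8.46 in gut Treg, 8.16 in gut Tcon, 8.97 in spleen Treg and 8.34 in spleen Tcon. The groups overlapped only through spleen Treg, whose control pool at 8.97 stood above the K14 pool of gut Tcon at 8.94. The mean difference was 0.60 ± 0.18 (SE, 4 pairs), a 1.52-fold higher level with a 95% interval of 0.15 to 1.05 on the log2 scale. It did not pass (limma, adjusted p = 0.530, and 0.423 to 0.740 over the alternatives). The size depended on the processing, from 0.34 with the authors' values to 0.75 without the spleen Treg pair. The probe is dim, with deposited signals of 496.2 to 863.5. Psmb8 was also higher in Treg than in Tcon in all 4 pairs, by 0.30 ± 0.17 (limma, adjusted p = 0.466), with pair differences of 0.04 to 0.63. Its gut minus spleen difference was -0.21 ± 0.16, lower in 3 of 4 pairs.

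Psmb9, which replaces Psmb6, stood between 14.05 and 14.69. The lowest of these levels was in gut Treg of control mice and the highest in spleen Treg of K14 mice. It was lower in gut than in spleen in all 4 pairs, with a difference of -0.24 ± 0.15 (limma, adjusted p = 0.381). For K14 minus control the mean was 0.11 ± 0.18, with 2 pairs higher and 2 lower. Treg minus Tcon gave -0.05 ± 0.18, also with 2 pairs each way.

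Psmb10, which replaces Psmb7, was at 14.84 in gut Treg of K14 mice and at 14.12 in gut Treg of control mice. These were its highest and lowest levels, and the 6 other arrays lay between 14.45 and 14.68. Its K14 minus control mean was 0.17 ± 0.20 over the 4 pairs and -0.02 without the gut Treg pair. A second detected probe of Psmb10 gave -0.13 ± 0.16 for Treg minus Tcon where the brighter one gave 0.06 ± 0.18, so no direction can be read there.

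The constitutive subunits were lower in gut cells for 2 of 3. Psmb6, the caspase-like subunit, was at 12.82 in gut Treg and 12.98 in gut Tcon of K14 mice and at 12.31 in gut Treg and 12.81 in gut Tcon of control mice. In spleen it was at 13.31 in Treg and 13.41 in Tcon of K14 mice, and at 13.43 in Treg and 13.56 in Tcon of control mice. The gut and spleen arrays did not overlap. The difference was -0.70 ± 0.19 (SE, 4 pairs), 1.62-fold lower, and did not pass (limma, adjusted p = 0.111, and 0.0570 to 0.271 over the alternatives).

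Psmb5, the chymotrypsin-like subunit, was at 10.36 in gut Treg and 10.77 in gut Tcon of K14 mice and at 9.80 and 10.32 in the same cells of control mice. In spleen it was at 11.09 in Treg and 10.88 in Tcon of K14 mice and at 10.79 and 11.04 in the same cells of control mice. These groups were also apart, by the small margin between gut Tcon of K14 mice and spleen Treg of control mice. The mean difference was -0.64 ± 0.20, 1.55-fold lower (limma, adjusted p = 0.146). Psmb7, the trypsin-like subunit, gave 0.04 ± 0.18 for gut minus spleen. Its 3 detected probes disagreed there, at 0.04, 0.08 and -0.42, the last from a dim probe with deposited signals of 305 to 350.7. In Treg it was lower than in Tcon in all 4 pairs, with a difference of -0.33 ± 0.16 (limma, adjusted p = 0.388), with pair differences of -0.60 to -0.20. Its other detected probes gave -0.33, lower in 3 of 4 pairs, and -0.02, with 2 pairs each way, the latter from the dim probe.

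**Figure D4:**
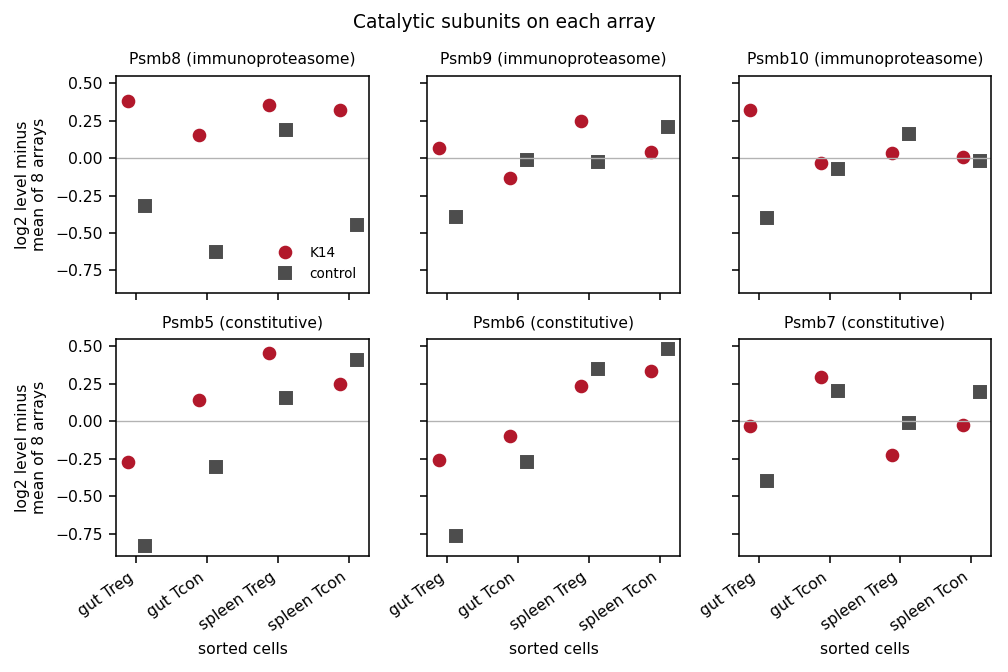
Level of the 3 immunoproteasome subunits (upper row) and of the constitutive subunits they replace (lower row) in each of the 4 kinds of sorted cells, as log2 level minus the gene's mean over 8 arrays, with K14 pools as red circles and control pools as dark squares, 1 array each. Psmb8 is higher in the K14 pool of all 4 kinds of cells, and Psmb9, Psmb10, Psmb5, Psmb6 and Psmb7 are at their lowest in gut Treg of control mice.

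Each immunoproteasome subunit was set against the subunit it replaces by taking the difference of their differences in each pair, 9 relations in all. Psmb9 minus Psmb6 was 0.46 ± 0.23 (SD, n = 4 pairs) for gut minus spleen and positive in 4 of 4 pairs (exact sign-flip test, two-sided, p = 0.125, Benjamini-Hochberg adjusted 0.321). Psmb10 minus Psmb7 was 0.39 ± 0.20 for Treg minus Tcon and also positive in 4 of 4 (exact sign-flip test, p = 0.125, adjusted 0.321). It rests on the brightest of 3 Psmb7 probes. Of the others, 1 gave a like Treg minus Tcon difference of -0.33 and the dimmest, at 305 to 350.7 signal units, gave -0.02. Psmb8 minus Psmb5 was 0.55 ± 0.49 for Treg minus Tcon, 0.43 ± 0.35 for gut minus spleen and 0.31 ± 0.45 for K14 minus control, positive in 3 of 4 pairs each. Psmb9 minus Psmb6 was 0.17 ± 0.21 for Treg minus Tcon, positive in 3 of 4, and 0.01 ± 0.28 for K14 minus control, negative in 3 of 4. Psmb10 minus Psmb7 was 0.16 ± 0.18 for K14 minus control, positive in 3 of 4, and -0.13 ± 0.19 for gut minus spleen, negative in 3 of 4. With 4 pairs, 0.125 is the smallest p that this exact test allows, so no relation could pass 0.05.

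The promoters of these catalytic genes, except Psmb7, are given because their levels carry the comparison of the 2 forms of the core. The sequences are RefSeq windows on GRCm38.p6 from 250 bases before to 50 bases after the annotated start, 5′ to 3′ on the gene's strand. Capitals mark TTCNNNGAA (the core of STAT sites) in Psmb8 and TGACNNNGC (the core of antioxidant response elements) in Psmb5 and Psmb6. The windows are chr17:34197945-34198244 (plus strand) for Psmb8, chr17:34187281-34187580 (minus) for Psmb9 and chr8:105938343-105938642 (minus) for Psmb10. They are chr14:54617946-54618245 (minus) for Psmb5 and chr11:70525107-70525406 (plus) for Psmb6.
Psmb8: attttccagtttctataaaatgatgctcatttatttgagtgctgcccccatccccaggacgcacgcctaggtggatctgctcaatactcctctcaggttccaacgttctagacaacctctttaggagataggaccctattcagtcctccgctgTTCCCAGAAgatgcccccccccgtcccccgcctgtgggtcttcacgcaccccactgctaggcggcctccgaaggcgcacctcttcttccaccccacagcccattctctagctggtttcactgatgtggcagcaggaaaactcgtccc
Psmb9: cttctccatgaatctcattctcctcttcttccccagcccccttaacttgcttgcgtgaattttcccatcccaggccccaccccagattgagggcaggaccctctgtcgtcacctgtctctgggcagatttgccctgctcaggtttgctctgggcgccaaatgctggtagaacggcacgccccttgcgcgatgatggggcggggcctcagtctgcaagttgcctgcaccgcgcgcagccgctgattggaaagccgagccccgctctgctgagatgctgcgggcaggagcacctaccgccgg
Psmb10: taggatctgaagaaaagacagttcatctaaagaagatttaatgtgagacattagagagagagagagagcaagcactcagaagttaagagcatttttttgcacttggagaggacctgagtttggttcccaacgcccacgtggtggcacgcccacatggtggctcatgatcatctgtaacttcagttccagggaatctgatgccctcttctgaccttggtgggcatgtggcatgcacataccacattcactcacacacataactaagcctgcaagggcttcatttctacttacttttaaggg
Psmb5: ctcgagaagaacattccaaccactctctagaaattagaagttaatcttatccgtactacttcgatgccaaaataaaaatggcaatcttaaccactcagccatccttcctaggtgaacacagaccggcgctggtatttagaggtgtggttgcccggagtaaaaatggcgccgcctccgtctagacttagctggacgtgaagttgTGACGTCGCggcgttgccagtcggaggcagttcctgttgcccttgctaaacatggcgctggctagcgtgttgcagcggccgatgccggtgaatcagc
Psmb6: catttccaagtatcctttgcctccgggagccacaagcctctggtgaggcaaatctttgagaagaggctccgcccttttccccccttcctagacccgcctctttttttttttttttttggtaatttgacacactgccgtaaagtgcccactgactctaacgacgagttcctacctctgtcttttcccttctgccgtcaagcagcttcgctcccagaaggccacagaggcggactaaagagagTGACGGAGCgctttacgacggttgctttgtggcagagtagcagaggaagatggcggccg

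Both strands were searched, and 38 of the 44 genes had a window, 42 in all. TTCNNNGAA was in 3 of these 42 windows (Psmb8, Psmd2 and Psmg1) and in 8.3% of all 32851 windows. TGACNNNGC was in 6 of 42, Psmb5, Psmb6, Psme4 and Psmd12 among the genes measured, and in 12.4% of all windows. The repeat bound by IRF factors, searched as GAAA, 2 bases of any kind and GAAA again, was in 4 of 42 and in 3.44% of all windows. Among the measured genes it was in Psmb3, Psmd4 and Psme1, and in none of the 5 windows shown. Over the windows of genes tested, the shares of the motifs above were 7.12%, 13.9% and 3.2%, in the order given. CCGGAAG, the core of ETS sites, was in 16 of 42 windows, against 8.86% of all windows and 17.5% of the 8355 windows of genes tested. The motifs were chosen with the windows in view, and a match is a string of letters, not a bound site. Psmb9's window overlaps that of Tap1 on the opposite strand.

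The 4 beta subunits without a catalytic site, Psmb1, Psmb2, Psmb3 and Psmb4, were lower in gut than in spleen in all 4 pairs, with a median of -0.35 and a range of -0.45 to -0.20. Gut and spleen arrays did not overlap for Psmb1, Psmb3 and Psmb4. Over all genes, 20% were lower in gut in all 4 pairs and 14.6% did not overlap. Psmb1 was at 13.29 to 13.81 in gut and 14.01 to 14.15 in spleen, a difference of -0.45 ± 0.16 (limma, adjusted p = 0.179). Psmb3 was -0.44 ± 0.16 (limma, adjusted p = 0.175). Psmb3 and Psmb2 were higher in K14 than in control pools in all 4 pairs, as were 7.88% of all genes. Psmb2 had pair differences of 0.16 to 0.21 and a mean of 0.18 ± 0.14, while its second detected probe gave 0.39 ± 0.15, also higher in 4 of 4. That probe gave -0.39 ± 0.15 for gut minus spleen, where the brighter one gave -0.20 ± 0.15. Psmb3 had pair differences of 0.04 to 0.41 and a mean of 0.22 ± 0.15. Neither gene passed (limma, adjusted p = 0.788 for Psmb2 and 0.765 for Psmb3).

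The alpha ring, which gates entry to the core, showed no common direction. Of its 5 measured genes, 2 were higher and 3 lower in gut, from 0.31 for Psma4 to -0.50 for Psma5. Psma5 was at 14.50 to 14.63 in gut and at 14.88 to 15.16 in spleen. Its groups did not overlap, and its mean difference of -0.50 ± 0.15 did not pass (limma, adjusted p = 0.128). Psma4 had the widest spread, from 11.63 in spleen Treg to 12.75 in gut Treg, both of K14 mice. Psma2 exceeded 60000 signal units on 2 of 8 arrays, near the top of the scale, where differences are compressed.

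All 3 measured assembly chaperones of the core were lower in gut on average, against 4496 of all 7916 genes. Their median was -0.69, against -0.07 for all genes. Psmg1, which pairs with Psmg2 to assemble the alpha ring, was at 9.51 in gut Treg and 9.65 in gut Tcon of K14 mice and at 8.90 and 9.57 in the same cells of control mice. In spleen it was at 9.89 in Treg and 10.49 in Tcon of K14 mice and at 10.15 and 10.21 in the same cells of control mice. All 4 gut arrays were below all 4 spleen arrays, with a difference of -0.78 ± 0.20 on average, 1.71-fold lower (limma, adjusted p = 0.106). Psmg1 was also lower in Treg than in Tcon in all 4 pairs, with a difference of -0.37 ± 0.18 (limma, adjusted p = 0.419).

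Psmg3, the partner of Psmg4 in the other chaperone pair, was at 10.70 in gut Treg and 10.50 in gut Tcon of K14 mice and at 10.60 and 10.85 in the same cells of control mice. In spleen it was at 11.52 in Treg and 11.28 in Tcon of K14 mice and at 11.04 and 11.54 in the same cells of control mice. The groups did not overlap. Its difference of -0.69 ± 0.16, 1.61-fold lower, had the lowest adjusted p of any proteasome gene in the 3 comparisons (limma, adjusted p = 0.0862). With the authors' deposited log2 values in place of the background-corrected ones, Psmg3 passed at -0.64 (limma, adjusted p = 0.0382), as did Psma5 at -0.51 (limma, adjusted p = 0.0469). Psmg2 was lower in gut in 3 of 4 pairs, with a difference of -0.29 ± 0.22. Its second detected probe gave -0.60 ± 0.17, lower in 4 of 4 (limma over all probes, adjusted p = 0.123). For Treg minus Tcon that probe gave -0.81 ± 0.17, lower in 4 of 4, and the brighter one -0.22 ± 0.18 (limma over all probes, adjusted p = 0.154 and 0.633). Pomp, which matures the core and is no member by its symbol, gave 0.35 ± 0.20, higher in gut in 3 of 4 pairs (limma, adjusted p = 0.360).

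The ATPase ring unfolds substrates, and its 5 measured genes had differences of -0.28 to 0.29 in the 3 comparisons. Both ends belonged to Psmc1, with -0.28 ± 0.26 for gut minus spleen and 0.29 ± 0.24 for K14 minus control. Psmc3 was the only proteasome gene whose Treg arrays were all above its Tcon arrays, at 12.94, 12.76, 12.84 and 12.94 in Treg and 12.67, 12.70, 12.76 and 12.70 in Tcon, with almost no gap between the groups. Its difference was 0.16 ± 0.14 (limma, adjusted p = 0.647). The share of genes without overlap in that comparison was 6.9% over all genes.

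Of the 9 measured non-ATPase subunits, 5 were lower and 4 higher in gut. Psmd2, a scaffold of the particle, was at 6.77 to 7.15 in gut and at 7.30 to 7.67 in spleen, a difference of -0.46 ± 0.17 without overlap (limma, adjusted p = 0.189). Its probe is near background, with deposited signals of 296.7 to 370.7 that overlap between the tissues before background correction and normalization. Psmd13, a lid subunit, was lower in gut in all 4 pairs, with a difference of -0.32 ± 0.16. Psmd14, the deubiquitinase of the lid, was at 10.52 and 10.08 in gut and spleen Treg of K14 mice and at 9.62 and 10.15 in those of control mice. In Tcon it was at 10.58 and 10.26 in gut and spleen of K14 mice and at 10.35 and 10.84 in those of control mice. It was lower in Treg in all 4 pairs, with a difference of -0.42 ± 0.19 (limma, adjusted p = 0.385), although its groups overlapped. Psmd7, also of the lid, was lower in Treg in all 4 pairs, with a difference of -0.23 ± 0.16 (limma, adjusted p = 0.568). Psmd11 was detected on 4 of 8 arrays, so its wide pair differences of -1.06 to 0.01 for Treg minus Tcon stand near background. Psmd4, a ubiquitin receptor, exceeded 60000 signal units on 4 arrays. Psmd10, a chaperone that helps build the particle, was lower in gut in all 4 pairs, with a difference of -0.17 ± 0.15.

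Among the activators, Psme1 (PA28 alpha, interferon-inducible) stayed within 15.51 to 15.79 on the 8 arrays. Its differences were 0.06 ± 0.14 for Treg minus Tcon, 0.08 ± 0.14 for K14 minus control and -0.17 ± 0.15 for gut minus spleen. Its second detected probe, which is dimmer, gave 0.10 ± 0.21, 0.30 ± 0.19 and 0.08 ± 0.19, so the sign for tissue depends on the probe. Psme1's brighter probe exceeded 60000 signal units on 1 array. Psme3 (PA28 gamma, the nuclear activator) was lower in K14 than in control pools in all 4 pairs, with a difference of -0.28 ± 0.17 (limma, adjusted p = 0.730). The pair differences were -0.66 in spleen Treg and -0.13 to -0.18 elsewhere. Psme4 (PA200) was lower in gut in all 4 pairs, with a difference of -0.53 ± 0.23 (limma, adjusted p = 0.242), with pair differences of -1.09 to -0.09. Psme3ip1 had differences of -0.22 ± 0.18 for Treg minus Tcon, -0.06 ± 0.21 for K14 minus control and -0.12 ± 0.21 for gut minus spleen.

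**Figure D5:**
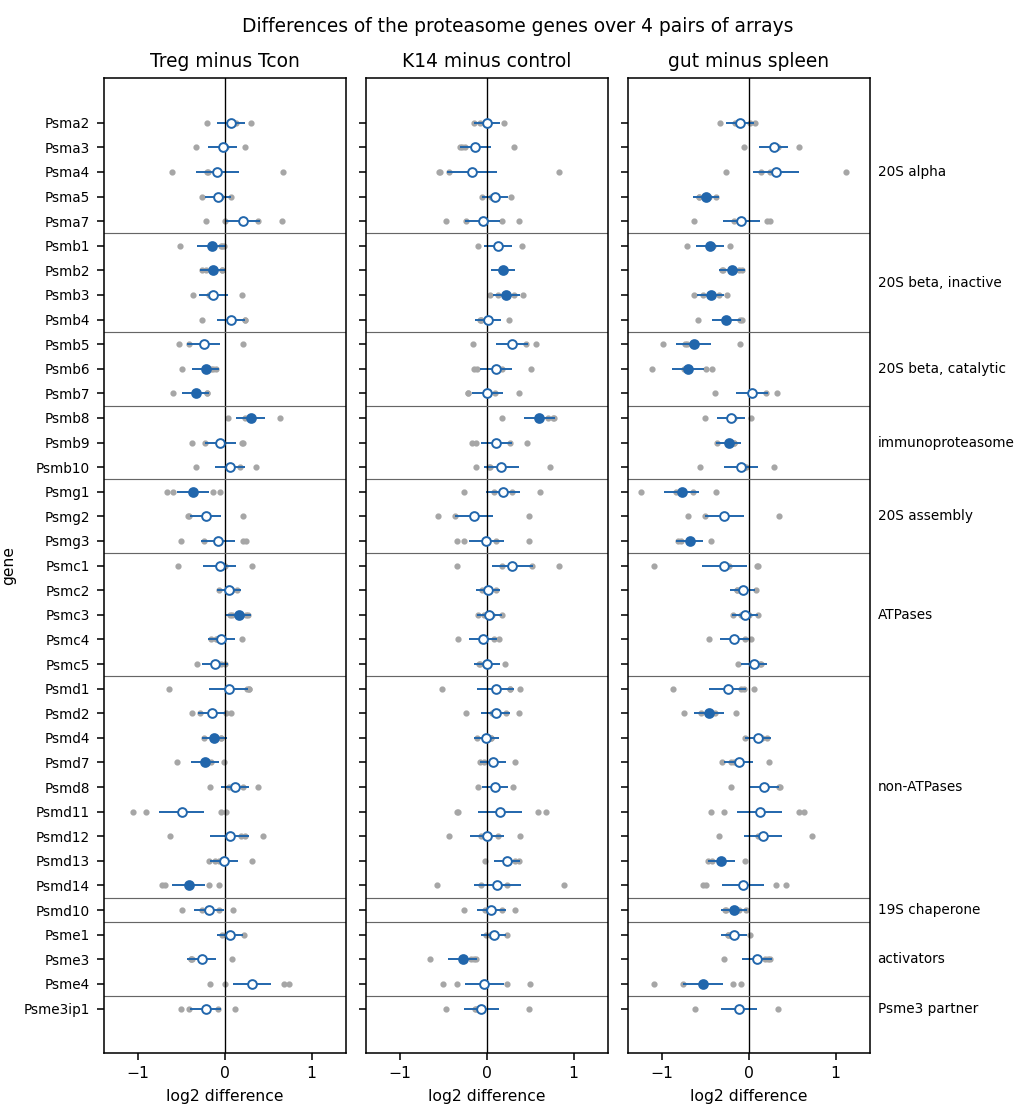
Mean log2 difference (blue points, bars 1 SE of limma) and the 4 pair differences (grey dots) of each of the 37 proteasome genes in the 3 comparisons, grouped by role, with filled points for genes with 1 direction in all 4 pairs. In gut minus spleen all filled points lie left of 0 (14 genes), and in Treg minus Tcon 8 lie left and 2 right.

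Whether a difference varied between the levels of another factor was fitted as a difference of differences, with 2 pairs on each side. None of the 37 genes passed at an adjusted p of 0.05 in the 3 such comparisons, where the background was 0% of genes in each. At an unadjusted p of 0.05 the count was 0 of 37 in each as well, against 7.28% of all genes for Treg minus Tcon between gut and spleen, 4.88% for K14 minus control between Treg and Tcon, and 6.23% for K14 minus control between gut and spleen. The medians of the proteasome genes were -0.08, 0.14 and 0.12 in that order, against 0.02, -0.02 and 0.02 for all genes. Each of these 3 contains the gut Treg control array. The most extreme gene was Psmd14, whose K14 minus control difference was 0.88 ± 0.41 higher in gut than in spleen (limma, adjusted p = 0.848).

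Genes that work with the proteasome were read from lists, as counts and medians with values for some of their genes. In the list of class I presentation, where proteasome products go, 12 of 15 genes were tested. None passed. On average 10 of 12 were higher in Treg than in Tcon, against 3691 of all 7916 genes, with a median of 0.47 against -0.03. Tap1 and Tap2, the peptide transporter, were higher in Treg in all 4 pairs, by 0.55 ± 0.20 and 0.51 ± 0.15 (limma, adjusted p = 0.292 and 0.230). H2-M3 had 0.82, higher in 3 of 4 pairs, and Tapbpl 0.61, higher in all 4. Calr had -0.65, but its probe was detected on 3 of 8 arrays, and its pair differences ran from -2.30 to 0.20. For Tapbp, the tapasin that loads class I, the difference was 0.44 ± 0.30 with 2 pairs each way. B2m was at -0.01 ± 0.15. In the other comparisons the list's medians were 0.17 for K14 minus control and 0.23 for gut minus spleen.

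Of the regulators of the immunoproteasome genes, 9 of 11 were tested, and 3 passed as higher in gut than in spleen. These were Ifng, the interferon-gamma gene, at 3.83 ± 0.42, Jak2 at 1.79 ± 0.25 and Ifngr1, its receptor chain, at 1.39 ± 0.21 (limma, adjusted p = 0.0272, 0.0459 and 0.0463). Irf1, the factor downstream, was higher in gut in all 4 pairs, by 0.42 ± 0.14 (limma, adjusted p = 0.162), and Nlrc5, the class I transactivator, by 0.38 ± 0.18 (limma, adjusted p = 0.279). Psmb8, Psmb9 and Psmb10 had differences of -0.21, -0.24 and -0.09 in the same comparison. Of the interferon-stimulated list, 9 of 14 genes were lower in gut on average, against 4496 of all 7916 genes, with a median of -0.36. In all 4 pairs 6 were lower, against 20% of all genes, and 3 were higher, against 14.3%. Among those 3, Gbp3, which encodes a guanylate-binding protein, passed as higher at 1.80 ± 0.17 (limma, adjusted p = 0.0207).

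The list of assembly factors and shuttles had 8 of 18 genes tested and the list of the NRF1 pathway, which drives proteasome genes when proteolysis is impaired, 6 of 11. No gene of either passed in the 3 comparisons. Their medians for Treg minus Tcon, K14 minus control and gut minus spleen were -0.19, 0.07 and 0.14 for the assembly list and -0.04, -0.04 and -0.04 for the NRF1 list. Nfe2l1, which encodes NRF1, was lower in K14 in all 4 pairs, with a difference of -0.21 ± 0.15 (limma, adjusted p = 0.776).

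Other gene lists are given for the same pools. For K14 minus control no gene of any list passed (limma), and 3777 of all 7916 genes were higher on average. Of the interferon-stimulated genes 12 of 14 were on the higher side, with a median of 0.49, and of the cell cycle genes 14 of 14, with a median of 1.42. Of the myeloid and dendritic genes it was 6 of 8, with a median of 1.68, and they summed to 2516 to 11837 signal units in K14 pools, against 2139 to 3464 in control pools. B cell genes summed to 5709 to 16158 in K14 pools, against 2349 to 7409 in control pools. For gut minus spleen, 3420 of all 7916 genes were higher and 4496 lower on average. Epithelial genes summed to 4270 to 8979 in gut pools, against 1989 to 2409 in spleen pools. Of them 5 of 5 were on the higher side, and Krt8, a keratin gene, passed at 3.33 ± 0.48 (limma, adjusted p = 0.0461). On the lower side in gut were 8 of 8 myeloid and dendritic genes, with a median of -0.92, of which S100a9, a neutrophil and monocyte gene detected on 0 of 4 gut arrays and 4 of 4 spleen arrays, passed (limma, adjusted p = 0.0271). These 8 genes summed to 2139 to 3873 in gut pools, against 2903 to 11837 in spleen pools. All 4 B cell genes were also on that side, with a median of -0.96 and sums of 2349 to 8689 in gut pools, against 3860 to 16158 in spleen pools. Cd8b1 gave -1.88 ± 0.41 (limma, adjusted p = 0.0829), and both erythroid genes were lower, with a median of -1.36. For Treg minus Tcon, 6 of 8 myeloid and 6 of 6 exocrine pancreas genes were on the lower side, with medians of -0.62 and -1.14, and none passed. Over all genes 4225 of 7916 were on that side. Exocrine pancreas genes summed to 54097 in gut Tcon of control mice and to 1796 to 4704 on the other arrays. The part of these groups in the proteasome differences was not tested.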

How the data were processed

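RNA of 8 pools was measured on 8 Illumina mouse bead arrays. The deposited table holds linear probe intensities and a detection p-value beside each of them, per the file headers. A second table deposited by the authors holds log2 values, with column medians of 8.28 to 8.30. Probes rank in the same order there as by intensity, while normalization and centring are not given in the sources used here. Those served as an alternative. limma 3.58.1 in R 4.3.3 corrected the background (nec, which runs normexp on a background inferred through detection p-values) with an offset of 16, followed by quantile normalization and log2. Probes detected at p under 0.05 on at least 2 of 8 arrays were kept, and each gene was read from its probe of highest mean, which left 7916 genes. Genes were named from the platform's probe table, and all 66 proteasome probes matched RefSeq by gene ID.

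Each comparison was fitted over all 8 arrays with the 4 pairs that share both other factors as blocks, and differences of differences with 2 residual degrees of freedom. Moderated tests (limma) were adjusted by Benjamini-Hochberg over all genes. The pairing comes from the labels. The spread behind each p-value is that between arrays of pooled RNA, with no biological replicate of any pool, and the number of arrays limits the precision. Preparation and tissue cannot be told apart.

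Proteasome genes named with values were Psmb5 to Psmb10, Psme1, and in each comparison the 5 highest and 5 lowest with 1 direction in all 4 pairs. Other proteasome genes were named after their values were seen. The members and lists were chosen with earlier results of these data known. None of the genes of the list of ubiquitin and E1 enzymes passed the filter. The fits were run on simulated data with the same noise for every gene and no pair effects. That checks only whether known differences return on average, not the error rates in these data. The alternatives used the authors' values, an offset of 50, median centring, no background correction, detection on all 8 arrays or no detection filter, the mean of a gene's probes, every probe by itself, each pair left out, 1 model of 3 factors, and genes above 60000 signal units left out. Motifs were counted with Python 3.11.15 and figures drawn with matplotlib 3.10.9.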

Additional observations from a re-analysis of the deposited data

Results flagged for a closer look

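A pair of arrays was singled out when its difference stood apart from the other 3 by Dixon's criterion for 4 values. Chance singles out about 1 in 20 such sets, and 6 of 34 were found here, which share arrays and are not independent. The members' median stood apart in 2 comparisons, each time in a pair with the gut Treg control array: it was 0.26 for K14 minus control in gut Treg, against -0.02 to -0.01 in the other pairs, and -0.33 for gut minus spleen in Treg of control mice, against -0.11 to -0.09. Psmb6 for Treg minus Tcon was -0.50 in the gut control pair, which contains the same array, against -0.17 to -0.10 in the others. Psmb8 for K14 minus control was 0.17 in spleen Treg, against 0.70 to 0.78 in the other pairs. Psme3 for K14 minus control was -0.66 in spleen Treg, against -0.18 to -0.13. Psme1 for gut minus spleen was 0.0157 in Treg of K14 mice, against -0.24 to -0.22. Each of these differences is 1 array against 1 array, and what sets it apart was not tested.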

How the results depend on the processing

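The direction of the members' median was the same under every alternative run for the 3 comparisons and the 3 differences of differences, except K14 minus control without the gut Treg pair. Leaving out 1 pair gave medians of -0.13 to -0.04 for Treg minus Tcon, -0.02 to 0.09 for K14 minus control and -0.21 to -0.14 for gut minus spleen. The number of members at their lowest on the gut Treg control array was 18 to 23 under 9 alternatives chosen after seeing the data, where every probe by itself counts probes. No member passed the test under any alternative, except Psmg3 and Psma5, which made 2 for gut minus spleen with the authors' values. The count over all genes moved more. For Treg minus Tcon it was 56, 100 with the authors' values, 100 without background correction, 110 with 3 factors in one model, 2 without the detection filter and 0 whichever pair was left out. For gut minus spleen it was 188, 468 with the authors' values, 409 without background correction, 288 with an offset of 50, 373 with detection on all 8 arrays, 462 with 3 factors in one model, 125 without the detection filter and 0 to 33 when 1 pair was left out. The share of higher genes among the calls was 78.6% for Treg minus Tcon, against 63.0% with the authors' values, and 68.1% for gut minus spleen, against 51.7% with the authors' values and 55.5% without background correction. Of 403 values of named members under alternatives, 387 kept their direction and their side of the threshold and 15 changed sign, all of them small. Sign changes were Psme1 at -0.0226 for Treg minus Tcon and Psmb7 at -0.0901 for K14 minus control with median centring, and Psmb10 at -0.0331 for Treg minus Tcon and Psmb7 at -0.103 for gut minus spleen with the mean of a gene's probes. When 1 pair was left out, the range for Treg minus Tcon was -0.14 to 0.0569 for Psmb9 and -0.0396 to 0.19 for Psmb10. For K14 minus control it was -0.0190 to 0.26 for Psmb10, -0.0291 to 0.19 for Psmb6, -0.12 to 0.0822 for Psmb7 and -0.00662 to 0.20 for Psmb9. For gut minus spleen it was -0.0606 to 0.18 for Psmb7 and -0.22 to 0.0660 for Psmb10. The causes were not tested. Levels near the top of the scale (Psma2, Psmd4, Psme1) and near background (Psmd11, Psmd2) limit what their differences show. No paired analysis beyond the blocks above was possible because each combination had 1 array.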
